A study of Homo sapiens with 9 samples.

Results

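The mitochondrial ribosome is the machine that translates the few messenger RNAs encoded by mitochondrial DNA, all of which specify subunits of the respiratory chain and of ATP synthase. Its ribosomal RNAs are transcribed inside the organelle, whereas its protein subunits are encoded by nuclear genes, made in the cytosol and imported. The large subunit (MRPL genes) holds the site of peptide bond formation, and the small subunit (MRPS genes) reads the messenger RNA. Some subunits descend from bacterial ribosomal proteins and others are found only in mitochondria. The members described here are the genes whose symbol is MRPL or MRPS followed by a number and at most 1 letter from A to C. The rule used no measured value and found 78 gene identifiers with 76 symbols, 48 of them MRPL and 30 MRPS, among 57751 identifiers in the deposited tables.

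A549 cells, epithelial cells of a lung adenocarcinoma kept as an established human line, were sequenced in 3 libraries for each of 3 groups. All groups shared the same medium and were sampled after 7 days. The control group received DMSO, the second received GSK591, an inhibitor of the arginine methyltransferase PRMT5, and the third received MS023, an inhibitor of type I arginine methyltransferases, each inhibitor at 1 µM. Control plates were started with 0.2 and treated plates with 0.4 times 1e5 cells, so seeding and treatment cannot be told apart in comparisons with DMSO. RNA was extracted in triplicate, and nothing says that the triplicates came from separate cultures, so the tests rest on the spread between these libraries alone, which may be technical. A bulk library of 1 cell line also cannot tell less RNA per cell from a change in the mix of cell states.

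The libraries held 31398075 to 51244525 counts in genes, and members took 0.317 to 0.383% of them. Of the 78 identifiers, 75 were in the count table and 73 passed the filter on low counts. MRPL12, MRPL46 and 1 identifier of MRPL30 had FPKM values only (fragments scaled to gene length and to the size of the library). One further identifier each of MRPL30 and MRPS17 had counts but did not pass the filter. The genomic span of 48 of the 78 overlaps that of another gene, and the strand setting of the counting is not given in the sources used here. Their counts are therefore less certain, and an overlapping gene is named below where a member's values are given in full. Epithelial markers summed to 6402 to 6528 CPM (counts relative to library size, scaled by TMM) in DMSO, 7687 to 7952 in GSK591 and 5133 to 5331 in MS023. Leukocyte markers summed to 26.3 to 27.8, 34.5 to 35.8 and 21.1 to 22.4 CPM, with PTPRC and CD3E at or near 0. Fibroblast and endothelial markers summed to between 4.07 and 5.55 CPM in the 9 libraries, and DCN was near 0. Single markers moved both ways within these sums, except the leukocyte markers in MS023. Fitted log2 changes of the 6 epithelial markers ran from -1.065 to 1.645 in GSK591 and from -0.485 to 0.645 in MS023. Those of the 3 fibroblast and endothelial markers tested ran from -1.017 to 1.531 and from -0.558 to 2.64. Those of the 4 leukocyte markers tested ran from -0.146 to 1.31 in GSK591 and from -0.855 to -0.183 in MS023. The part of these differences in the results below was not tested. One library, GSK591 3, stood apart in mitochondrial ribosomal RNA, at 932.5 CPM against 0.410 to 20.7 in the others.

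The promoters of the members were searched for 5 short motifs. RefSeq (GRCh38.p14) gave a promoter of 300 bases, from 250 before to 50 after the start, for 67 of the 76 symbols. CCGGAAG or its reverse complement CTTCCGG, the core bound by ETS factors such as GABPA, was in 28 of 67 (41.8%), against 12.8% of 22198 protein-coding promoters. AAGATGGC or GCCATCTT, the core bound by YY1, was in 20 of 67 (29.9%), against 3.53%. GCGC, any base and TGCGC in a row, on either strand, a core bound by NRF1, was in 7 of 67 (10.4%), against 7.38%. The GC box GGGCGG, on either strand, was in 41 of 67 (61.2%), against 56.3%, and TATAAA, on either strand, in 2 of 67 (2.99%), against 9.47%. Of the 37 ETS matches 28 lay wholly before the start, whereas 15 of the 21 YY1 matches reached the start or lay after it. One ETS match overlapped another motif, a GC box. A match is a run of letters, not a measured binding site.

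The 90 bases before the start, in the gene's own 5′ to 3′ direction with the ETS core in capitals, are shown for 5 members that the results below turn on. MRPS18A (chr6:43687792-43687881, minus strand) fell most with GSK591, and MRPL48 (chr11:73787784-73787873, plus strand) had the second largest gap between the inhibitors. MRPL40 (chr22:19432455-19432544, plus strand) was lower with both, and MRPL43 (chr10:100987498-100987587, minus strand) was called in opposite directions. MRPS34 (chr16:1773135-1773224, minus strand) is among the most abundant members and holds 3 cores.
MRPS18A: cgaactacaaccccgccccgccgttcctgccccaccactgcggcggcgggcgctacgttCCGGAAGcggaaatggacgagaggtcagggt
MRPL48: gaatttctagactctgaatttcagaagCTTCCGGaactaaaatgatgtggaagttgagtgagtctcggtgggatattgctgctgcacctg
MRPL40: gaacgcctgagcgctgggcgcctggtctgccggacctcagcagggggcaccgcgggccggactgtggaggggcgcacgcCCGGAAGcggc
MRPL43: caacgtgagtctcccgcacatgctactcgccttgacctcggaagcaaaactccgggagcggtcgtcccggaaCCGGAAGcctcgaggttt
MRPS34: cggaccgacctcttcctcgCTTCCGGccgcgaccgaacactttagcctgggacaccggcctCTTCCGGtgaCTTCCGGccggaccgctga
The median fitted log2 change in GSK591 was -0.22 over 27 members with the ETS core and -0.30 over 37 without it. For the YY1 core it was -0.29 over 19 members with it and -0.26 over 45 without it. For the NRF1 core it was -0.16 over 6 members with it and -0.28 over 58 without it. The members shown were picked, from those with a core, for their changes or level. They therefore cannot show how the ETS core relates to the changes, which was not tested.

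In DMSO most members lay within a narrow band of levels per length. Mean FPKM in DMSO had a median of 36.7 over the 78 identifiers, with the middle 50% between 25.1 and 54.0, and 48 lay between 20 and 60. Over the 12898 genes at 1 FPKM or more the median was 11.2. Genes of the large subunit had a median of 36.7 FPKM and those of the small subunit 38.6. The highest members were MRPL51, a large-subunit protein found only in mitochondria, at 246 ± 65.1 FPKM, and MRPL33, of a bacterial family and overlapping BRE and RBKS, at 198 ± 37.9 (SD, n = 3, here and below). MRPL12, which forms the stalk where translation factors dock and whose span overlaps SLC25A10, followed at 119.5 ± 9.52, MRPL24 at 113 ± 23.8 and the small-subunit MRPS34 at 98.4 ± 6.26. MRPL33 lay above MRPL12 by more than the sum of their SDs, and the other neighbours in this order did not differ by that much. At the other end MRPL30 had 3.33 ± 0.721 FPKM, its other identifier 0.0543, and the second identifier of MRPS17 0.377. Of the high members, MRPL24 fell with GSK591 (-0.38 ± 0.070, adjusted p = 0.000229) and MS023 (-0.23 ± 0.070, adjusted p = 0.0138), as did MRPS34 (-0.16 ± 0.036, adjusted p = 0.00163, and -0.15 ± 0.036, adjusted p = 0.00251). The MS023 call of MRPL24 was lost without DMSO 2 (adjusted p = 0.105), MS023 2 (0.0551) or MS023 3 (0.0649). It was also absent in FPKM (limma, adjusted p = 0.128), and the MS023 libraries of MRPL24 overlapped those of DMSO in CPM. The lowest members after these were MRPS31 at 13.3, MRPL1 at 14.4 and MRPS14 at 14.6 FPKM.

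Most mitochondrial ribosomal protein genes were modestly lower in cells treated with the PRMT5 inhibitor. In GSK591 against DMSO, 55 of the 73 tested members fell and 1 rose at an adjusted p under 0.05 (edgeR quasi-likelihood test, Benjamini-Hochberg over all 18292 genes), and 17 were not called. Those 55 are 75.3% of the members, where 32.4% of all genes tested were called lower, 30.1% higher and 62.6% in either direction. The median log2 change was -0.30 over the members and 0.006 over all genes. The changes that passed ran from -0.77 to -0.11, with a median of -0.35. In 54 members every GSK591 library lay below every DMSO library (33.6% of all genes), and in 1 above (32%). Of the 55, 50 were called lower whichever single library was left out, and 43 under every alternative processing. Without GSK591 3 and DMSO 1 together, 57 members were lower.

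The lower level showed in the whole set of transcripts as well as gene by gene. Summed over the members, the level was 3688, 3938 and 3767 CPM in the DMSO libraries, 3161, 3060 and 3186 with GSK591, and 3640, 3476 and 3483 with MS023. Every GSK591 library was below every other library, also as a share of counts and in summed FPKM. Every MS023 library was below every DMSO library in these CPM, but MS023 1 was above DMSO 1 as a share of counts (0.364 and 0.357%) and in summed FPKM (3588 and 3321). The large-subunit genes summed to 2162, 2325 and 2208 CPM in DMSO and 1870, 1813 and 1886 in GSK591. Small-subunit genes summed to 1495, 1575 and 1526 CPM and to 1267, 1224 and 1276. The ratio of the large to the small sum stayed between 1.44 and 1.48 in the 9 libraries. DMSO 2 stood high, with 11 members below the DMSO mean against 52 in DMSO 1 and 47 in DMSO 3. In the GSK591 libraries 65 to 69 of the 73 members were below the DMSO mean, and in the MS023 libraries 45 to 54.

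**Figure D1:**
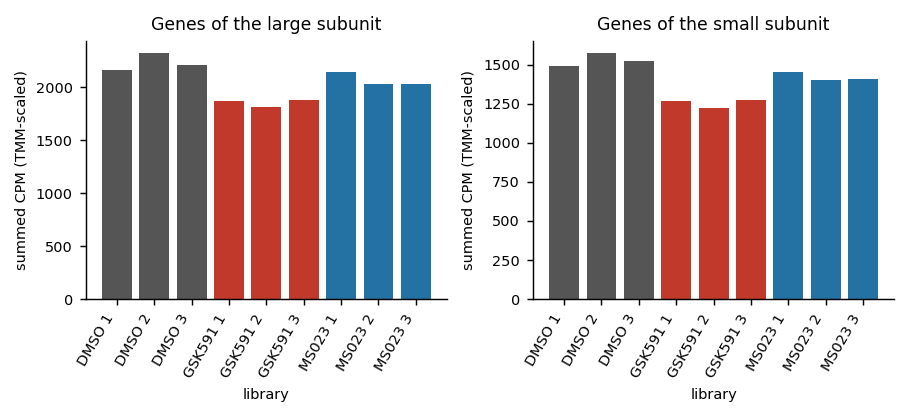
Summed TMM-scaled CPM (vertical axis, from 0) of the large-subunit genes (left) and small-subunit genes (right), with 1 bar for each of the 9 libraries. The GSK591 bars, 1813 to 1886 on the left and 1224 to 1276 on the right, are the lowest in both panels.

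The decrease with GSK591 ran through both subunits. Of the large-subunit genes 33 of 46 (71.7%) fell and 1 rose, with a median log2 change of -0.29. Of the small-subunit genes 21 of 26 (80.8%) fell, with a median of -0.31. Beside these and the shares below stand 32.4% of all genes called lower and 30.1% called higher. Members of bacterial families fell in 20 of 27 cases (74.1%) in the large and 13 of 16 (81.2%) in the small subunit, with medians of -0.34 and -0.35. Members found only in mitochondria fell in 13 of 19 (68.4%) and 8 of 10 cases (80%), with medians of -0.22 and -0.21. Counted among the latter kind were MRPS18A (-0.77) and MRPS18B (-0.40), although both are related S18 proteins. Of the 43 tested members whose span overlaps another gene 36 (83.7%) fell, with a median of -0.34. Of the 30 without such an overlap 19 (63.3%) fell, with a median of -0.23.

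**Figure D2:**
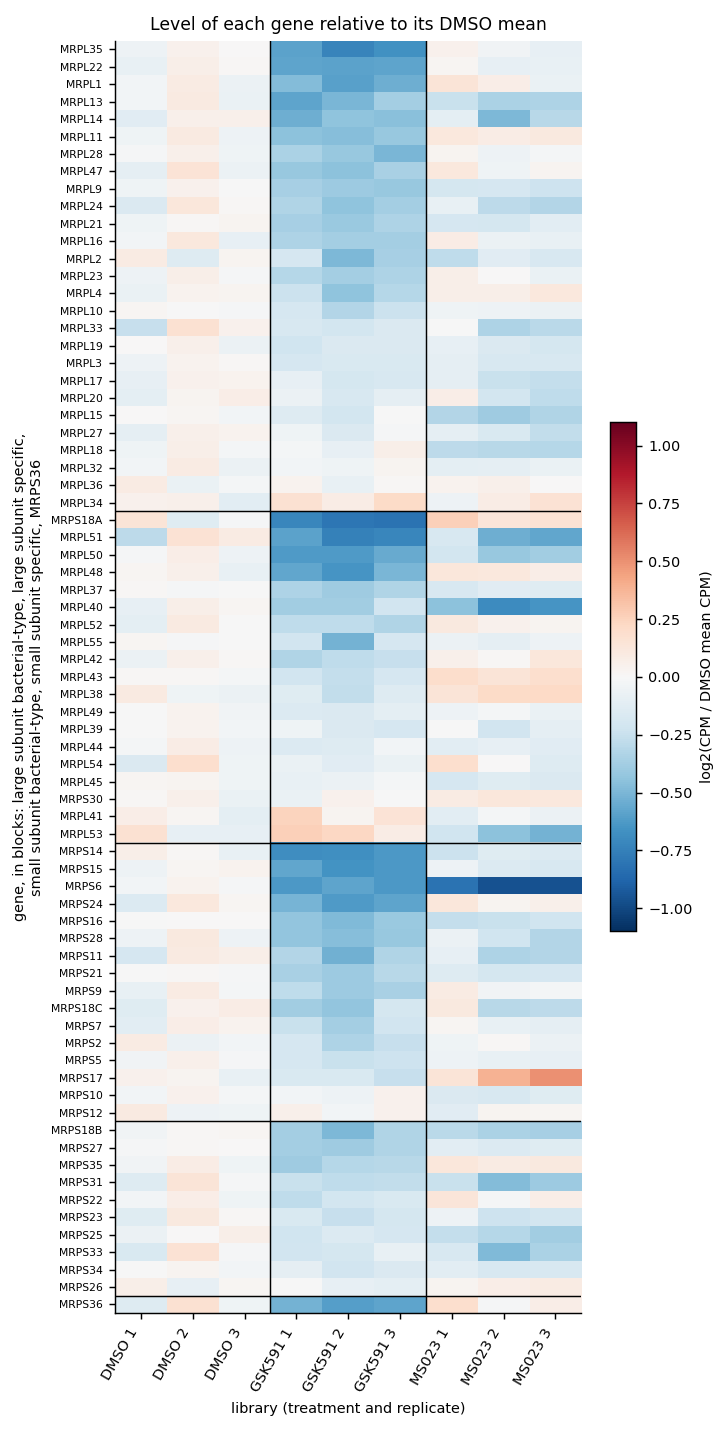
Level of each tested member (rows, ordered within subunits) in each of the 9 libraries (columns), as the log2 ratio to the mean of the DMSO libraries on the colour scale. The 3 GSK591 columns are mostly on the lower side, with 65 to 69 of 73 members below the DMSO mean.

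MRPS18A, 1 of a trio of related S18 proteins and in spite of its name a protein of the large subunit, fell most (chr6:43639039-43655528 in hg19, the build of the files, as for all positions of genes). It was at 11.9, 9.78 and 10.6 CPM in the DMSO libraries, 6.55, 6.19 and 6.13 CPM with GSK591 and 12.9, 11.8 and 12.03 CPM with MS023. All GSK591 libraries were below the others, and the change was -0.77 ± 0.080, adjusted p = 8.92e-07 (log2 ± standard error), or 41.4% less. The bases before its start are printed above, and its span overlaps RSPH9. MRPL51 (chr12:6601149-6603007, overlapping NCAPD2) was at 91.4, 125 and 119 CPM in the DMSO libraries, 74.3, 66.98 and 68.1 CPM with GSK591 and 98.9, 77.3 and 75.1 CPM with MS023. GSK591 was again below DMSO in every library (-0.68 ± 0.11, adjusted p = 6.12e-05), but DMSO 1 was well below the other DMSO libraries. MS023 1 lay among the DMSO values, and the call there (-0.42 ± 0.11, adjusted p = 0.00452) was not made in FPKM (adjusted p = 0.0781).

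MRPL35 (chr2:86426477-86440917), a large-subunit protein of a bacterial family, was at 71.03, 76.1 and 74.1 CPM in the DMSO libraries, 49.2, 44.6 and 46.6 CPM with GSK591 and 76.04, 71.6 and 69.5 CPM with MS023. The GSK591 libraries were well apart from the rest (-0.66 ± 0.046, adjusted p = 1.48e-08). With MS023 the difference was -0.027 ± 0.046, adjusted p = 0.646, by counts, and -0.27 with an adjusted p of 0.000606 by FPKM. The small-subunit genes MRPS14 (chr1:174979924-174992561, overlapping CACYBP) and MRPS15 (chr1:36921318-36930038) encode relatives of bacterial S14 and S15. MRPS14 was at 22.3, 21.5 and 20.2 CPM in DMSO and 13.3, 13.4 and 13.8 CPM in GSK591 (-0.66 ± 0.055, adjusted p = 9.15e-08). MRPS15 was at 43.3, 45.7 and 46.1 CPM and 30.3, 28.6 and 29.1 CPM (-0.62 ± 0.045, adjusted p = 1.79e-08). In both genes the 2 sets of libraries were far apart. Both were also called lower with MS023, by less (-0.17 ± 0.053, adjusted p = 0.0149, and -0.13 ± 0.044, adjusted p = 0.024). In FPKM neither MS023 call was made (limma, adjusted p = 0.157 and 0.103). MRPS6, a relative of bacterial S6 (chr21:35445523-35515334, a span shared with SLC5A3), was at 19.6, 20.6 and 19.8 CPM in the DMSO libraries, 12.9, 13.4 and 12.9 CPM with GSK591 and 11.4, 10.3 and 10.3 CPM with MS023. It was lower in every treated library (-0.62 ± 0.057, adjusted p = 2.76e-07, in GSK591).

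The 17 members without a call in GSK591 were MRPL18, MRPL20, MRPL27, MRPL32, MRPL33, MRPL34, MRPL36, MRPL39, MRPL45, MRPL53, MRPL54, MRPS10, MRPS12, MRPS17, MRPS26, MRPS30 and MRPS33, named here after their values were seen. Their fitted changes ran from -0.20 to 0.20 by counts. In FPKM 6 of them were called: MRPL20 (-0.41, adjusted p = 0.00482), MRPL27 (-0.23, 0.0483), MRPL39 (-0.23, 0.0308), MRPL53 (-0.58, 0.000616) and MRPS17 (-0.38, 0.00254) as lower, and MRPL34 (0.22, 0.0174) as higher. MRPS30, which sits in the large subunit, was at 82.5, 84.95 and 77.6 CPM in DMSO and 77.8, 84.2 and 81.4 CPM in GSK591, sets that overlap (-0.009 ± 0.040, adjusted p = 0.853). MRPL33 was at 55.3, 74.1 and 68.2 CPM and 58.2, 57.3 and 59.02 CPM, and its call depended on the setting: the adjusted p was 0.104 in the test used throughout, 0.00502 without DMSO 1, 0.0415 without MS023 1 and 0.000103 with no low-count filter. MRPL41, also named after its value was seen, was the 1 member that rose by counts, at 39.4, 38.00 and 34.8 CPM in DMSO and 44.4, 38.2 and 41.5 CPM in GSK591. Those libraries overlapped, and the change of 0.15 ± 0.057, adjusted p = 0.0384, was not called without DMSO 3 (adjusted p = 0.213), GSK591 1 (0.112) or GSK591 3 (0.0554), nor in FPKM (0.154). MRPL34 (overlapping ABHD8), the 1 member called higher in FPKM, was at 17.9, 18.03 and 15.99 CPM in DMSO and 19.4, 18.3 and 19.97 CPM in GSK591. Those sets did not overlap, and the change by counts was 0.15 ± 0.067, adjusted p = 0.0570.

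**Figure D3:**
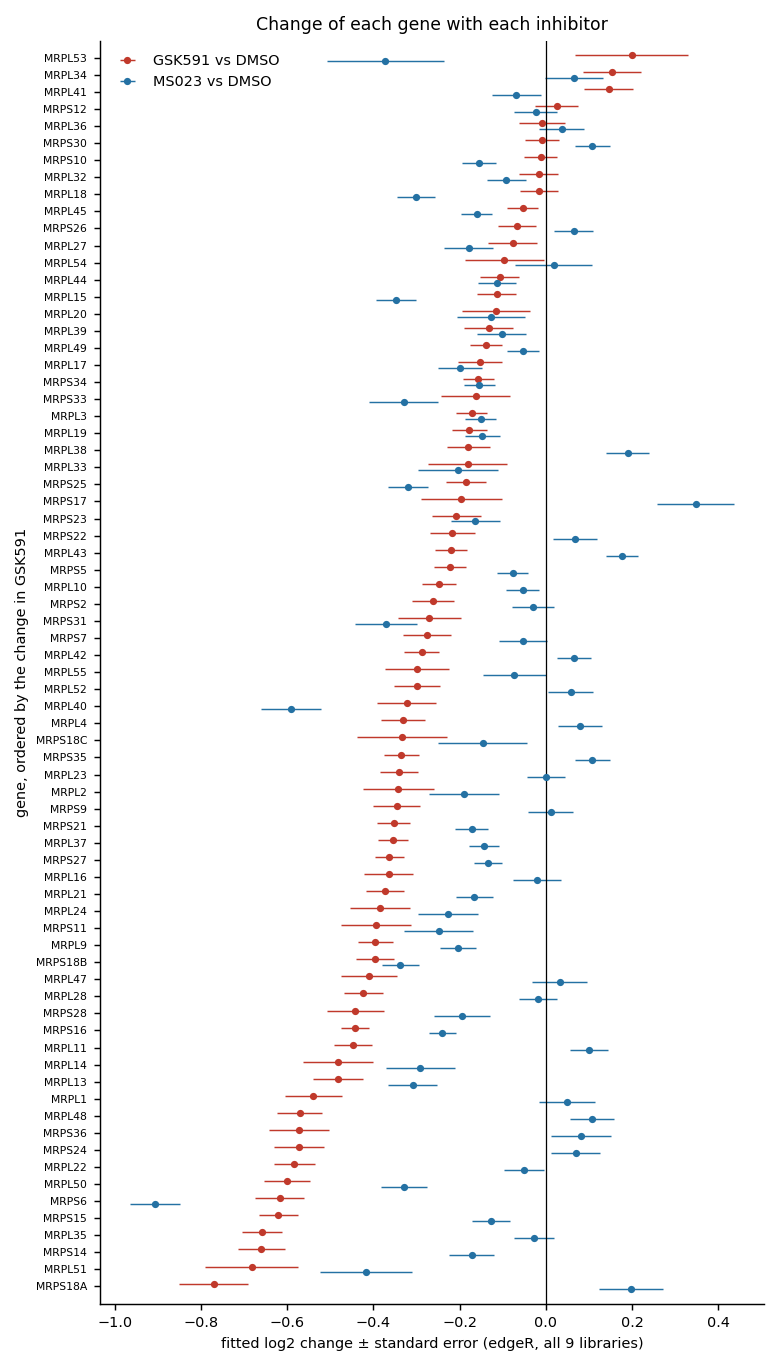
Fitted log2 change of each tested member (rows, ordered by the change in GSK591) against DMSO, for GSK591 (red) and MS023 (blue), with bars of 1 standard error from edgeR. The red points run from -0.77 for MRPS18A to 0.20 for MRPL53, and the blue points from -0.91 for MRPS6 to 0.35 for MRPS17.

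With the type I inhibitor members were called in both directions, more of them lower than higher. In MS023 against DMSO, 33 of the 73 members fell, 6 rose and 34 were not called. The 33 are 45.2% of the members, beside 25.9% of all genes called lower, and the 6 are 8.22%, beside 25.1% called higher (51% called in either direction). The median log2 change was -0.11 over the members and -0.003 over all genes. In 31 members every MS023 library lay below every DMSO library (29.1% of all genes), and in 7 above (28.4%). The calls depended on the table. In the FPKM tables, with limma, 20 of 76 members (26.3%) were lower beside 21.7% of all genes, a share near the background. In the same test 2 (2.63%) were higher, beside 20.9% of all genes. The median change there was -0.12 over the members, close to that by counts, and -0.007 over all genes. With GSK591 60 of 76 (78.9%) were lower in FPKM, beside 38.6%. Of the 33 decreases 12 were called in every alternative and 23 whichever single library was left out. Of the 6 increases only MRPL43 was called in every alternative.

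With MS023, 18 of 46 large-subunit genes (39.1%) fell and 4 (8.7%) rose, with a median of -0.082. Of the small-subunit genes 15 of 26 (57.7%) fell and 2 (7.69%) rose, with a median of -0.15. Over all genes 25.9% were called lower and 25.1% higher. MRPS6 changed most (-0.91 ± 0.058, adjusted p = 1.02e-08), from a mean of 20.01 ± 0.509 to 10.7 ± 0.651 CPM. MRPL40, a large-subunit protein found only in mitochondria (chr22:19419424-19423598, overlapping HIRA), was at 24.6, 27.4 and 26.7 CPM in the DMSO libraries, 20.1, 20.1 and 22.7 CPM with GSK591 and 19.1, 16.3 and 16.8 CPM with MS023. Each treated library was below each DMSO library, with MS023 lowest (-0.59 ± 0.069, adjusted p = 5.88e-06, and -0.32 ± 0.069, adjusted p = 0.000842, in GSK591). MRPS31, a small-subunit protein, was at 17.9, 21.7 and 19.6 CPM in DMSO, 16.6, 16.3 and 16.3 CPM in GSK591 and 16.6, 14.2 and 14.97 CPM in MS023. It was lower with MS023 (-0.37 ± 0.072, adjusted p = 0.000627) and with GSK591 (-0.27 ± 0.073, adjusted p = 0.00471). The difference between the inhibitors did not pass (adjusted p = 0.245).

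MRPL15, a relative of bacterial L15, was at 63.03, 64.1 and 61.9 CPM in DMSO and 50.4, 48.2 and 49.99 CPM in MS023, sets far apart (-0.35 ± 0.046, adjusted p = 2.19e-05). With GSK591 it was at 57.3, 54.8 and 62.7 CPM, overlapping DMSO, and the call there (adjusted p = 0.0450) was lost in 12 alternatives, with an adjusted p of up to 0.275. MRPS18B, the small-subunit relative of MRPS18A (overlapping PPP1R10), was at 50.7, 52.3 and 52.7 CPM in DMSO, 40.2, 36.9 and 41.1 CPM in GSK591 and 42.3, 40.7 and 40.3 CPM in MS023. It fell with both inhibitors, with log2 changes of -0.40 ± 0.044 and -0.34 ± 0.044 (adjusted p = 1.89e-06 and 1.75e-05 from edgeR), and the difference between them, 0.061 ± 0.044, adjusted p = 0.244, did not pass. MRPL18, a relative of bacterial L18, was at 61.9, 66.8 and 63.1 CPM in DMSO, 63.1, 59.9 and 66.8 CPM in GSK591 and 52.5, 51.8 and 51.3 CPM in MS023. Only the MS023 libraries stood below (-0.30 ± 0.044, adjusted p = 5.06e-05).

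The 6 members that rose with MS023 were MRPS17, MRPL38, MRPL43, MRPS18A, MRPS30 and MRPS35. MRPS17, a relative of bacterial S17 whose span overlaps GBAS, was at 7.25, 7.15 and 6.63 CPM in the DMSO libraries, 6.24, 6.23 and 5.89 CPM with GSK591 and 7.75, 9.16 and 9.92 CPM with MS023. The rise of 0.35 ± 0.089, adjusted p = 0.00462, was absent from the FPKM tables, where the difference was 0.031 (limma, adjusted p = 0.785). MRPL43, a large-subunit protein found only in mitochondria (chr10:102729214-102747272, overlapping C10orf2 and SEMA4G), was at 39.99, 39.9 and 38.9 CPM in the DMSO libraries, 34.2, 33.02 and 34.8 CPM with GSK591 and 45.3, 43.8 and 45.1 CPM with MS023. The groups did not overlap anywhere: GSK591 was below DMSO (-0.22 ± 0.038, adjusted p = 0.000146) and MS023 above it (0.18 ± 0.038, adjusted p = 0.00121).

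Besides MRPL43, MRPL38, MRPS18A and MRPS35 were called lower with GSK591 and higher with MS023, the only 4 members called in opposite directions. The large-subunit MRPL38 (overlapping FBF1) was at 63.6, 57.5 and 56.9 CPM in the DMSO libraries, 54.2, 49.2 and 53.7 CPM with GSK591 and 65.3, 68.5 and 69.3 CPM with MS023. Its changes of -0.18 ± 0.050, adjusted p = 0.00596, and 0.19 ± 0.050, adjusted p = 0.00524, were of like size, but the first lost its call without DMSO 1 (adjusted p = 0.0575), and in FPKM they had an adjusted p of 0.461 and 0.0569. The small-subunit MRPS35 (overlapping a Y RNA gene) was at 172, 187 and 172 CPM in the DMSO libraries, 135, 142 and 144 CPM with GSK591 and 193, 189 and 190.4 CPM with MS023. Its fall with GSK591 was clear of the spread (-0.34 ± 0.041, adjusted p = 5.69e-06), and its rise with MS023 was close to the threshold (0.11 ± 0.041, adjusted p = 0.0415). The rise of MRPS18A (0.20 ± 0.074, adjusted p = 0.0372) and that of MRPS30 (0.11 ± 0.040, adjusted p = 0.0358) were not called when some single libraries were left out. For MRPS30 the adjusted p was 0.190 without DMSO 3, 0.133 without MS023 2 and 0.128 without MS023 3. In FPKM the changes were 0.016 for MRPS30 (adjusted p = 0.829) and 0.11 for MRPS18A (0.206), and in DESeq2 the adjusted p was 0.0591 and 0.0678. That of MRPS35 was not called without DMSO 1, DMSO 3 or any 1 of the MS023 libraries, with an adjusted p of up to 0.144, nor with RLE scaling (0.0546) or in FPKM (0.101). For MRPS18A the adjusted p was 0.122 without DMSO 2, 0.0861 without DMSO 3, 0.134 without MS023 1 and 0.0611 without MS023 3.

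**Figure D4:**
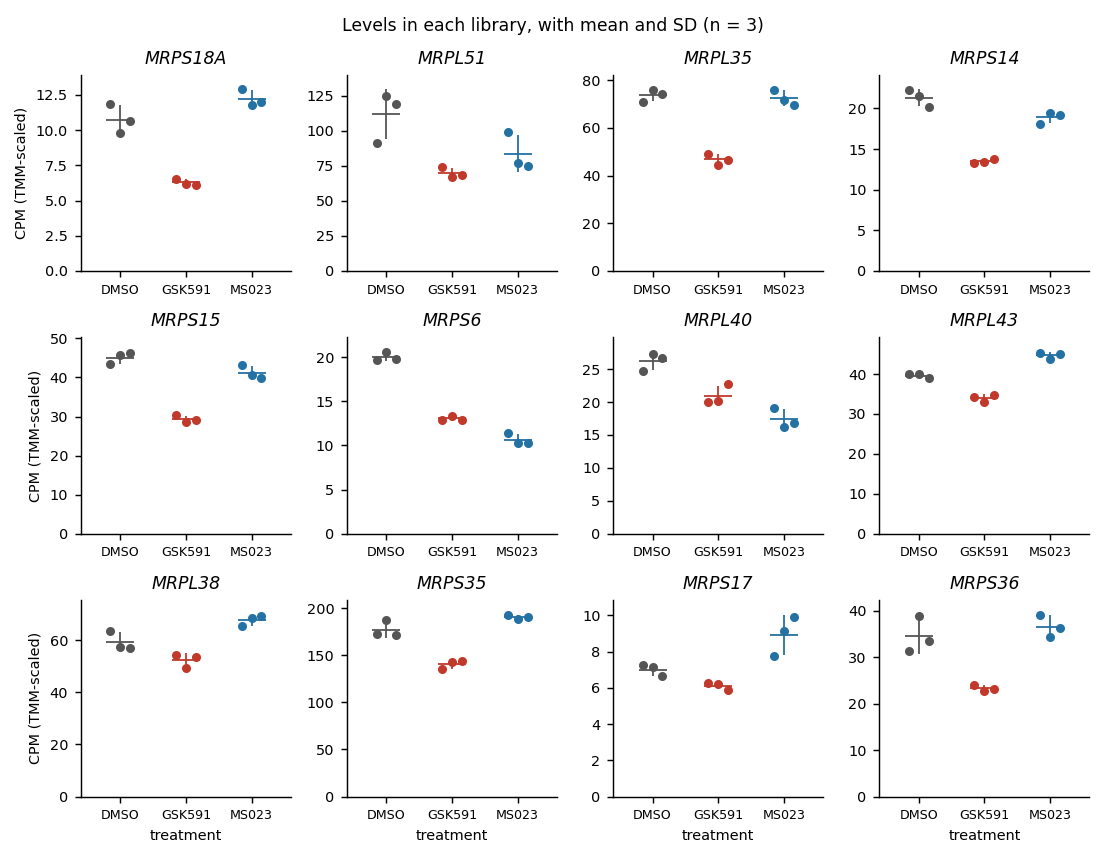
TMM-scaled CPM (vertical axes, from 0) of 12 members in each library (points) by treatment, with the mean (horizontal bar) and SD (vertical line, n = 3). GSK591 libraries sit lowest except for MRPS6 and MRPL40, where the MS023 libraries are lowest.

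The inhibitors were also compared directly, both at 1 µM and 7 days. With MS023, 40 of 73 members (54.8%) were higher than with GSK591, beside 33.6% of all genes, and 9 (12.3%) were lower, beside 31.7% (65.4% in either direction). In FPKM 39 of 76 (51.3%) were higher, beside 39% of all genes, and 5 (6.58%) lower, beside 22.6%. The median log2 difference by counts was 0.19 over the members and 0.002 over all genes. MRPS18A differed most, at 0.97 ± 0.078, adjusted p = 4.78e-08. Next came MRPL48, a large-subunit protein (overlapping the pseudogene CCDC58P5), at 16.5 ± 0.824 CPM in GSK591 and 26.4 ± 0.472 CPM in MS023 (0.68 ± 0.052, adjusted p = 2.7e-08), beside 24.5 ± 1.15 CPM in DMSO. MRPS36, now known as a part of the 2-oxoglutarate dehydrogenase complex rather than of the ribosome, was at 23.3 ± 0.708 and 36.6 ± 2.45 CPM (0.65 ± 0.070, adjusted p = 1.07e-06), beside 34.5 ± 3.84 CPM in DMSO. MRPS24, a relative of bacterial S3 that shares its span with a readthrough gene, was at 36.04 ± 1.49 and 56.2 ± 1.88 CPM (0.64 ± 0.058, adjusted p = 1.54e-07), beside 53.5 ± 4.90 CPM in DMSO. For all 3 the MS023 level did not pass the test against DMSO, with log2 differences of 0.11 ± 0.051, 0.082 ± 0.069 and 0.069 ± 0.057. Without DMSO 2 all 3 passed as higher than DMSO, at 0.15 (adjusted p = 0.0412), 0.19 (0.014) and 0.14 (0.0467). MRPL48 also passed without GSK591 3 (0.0448), with scaling by total counts (0.0188) and in FPKM (0.0443).

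The 9 members lower with MS023 than with GSK591 were MRPL15, MRPL18, MRPL40, MRPL41, MRPL45, MRPL53, MRPS6, MRPS10 and MRPS25. MRPS6 and MRPL40 fell with both inhibitors and were lower with MS023 than with GSK591 (-0.29 ± 0.059, adjusted p = 0.000586, and -0.27 ± 0.070, adjusted p = 0.00361). MRPL18 differed by -0.29 ± 0.044, adjusted p = 4.54e-05. The largest of the 9 differences, that of MRPL53, depended on the table. This large-subunit gene (chr2:74699084-74700449) overlaps CCDC142. By counts it was at 2.91, 2.43 and 2.44 CPM in DMSO, 3.11, 3.03 and 2.75 CPM in GSK591 and 2.22, 1.90 and 1.81 CPM in MS023, with MS023 lowest (-0.57 ± 0.13, adjusted p = 0.00173). By FPKM it was at 50.7 ± 6.38, 33.5 ± 1.21 and 42.1 ± 4.48, with GSK591 lowest, and the difference was 0.32 (limma on log2(FPKM + 1), adjusted p = 0.0164). MRPS25 (overlapping NR2C2) also turned in FPKM, to 0.15, without passing (adjusted p = 0.0674). The F-test among the 3 groups called 64 of 73 members (87.7%), beside 78.1% of all genes.

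The members outside the count test were read from FPKM, with limma on log2(FPKM + 1) over the 13588 genes that passed a filter of 1 FPKM in 3 libraries. MRPL12, the stalk protein, was at 109.7, 128.7 and 120.0 FPKM in the DMSO libraries, 90.1, 84.7 and 84.2 FPKM with GSK591 and 109.4, 99.7 and 98.9 FPKM with MS023. Every treated library was below every DMSO library, though MS023 1 was close to DMSO 1, with GSK591 lowest (-0.46 ± 0.066, adjusted p = 0.000232) and MS023 between (-0.22, adjusted p = 0.0251). MRPL46, a large-subunit protein found only in mitochondria (overlapping RP11-97O12.7), was at 28.5, 32.7 and 30.98 FPKM in the DMSO libraries, 29.4, 27.4 and 28.2 FPKM with GSK591 and 33.9, 30.2 and 29.9 FPKM with MS023. These overlap, and neither comparison passed (adjusted p = 0.168 and 0.756). MRPL30 (overlapping C2orf15) was at 3.33 ± 0.721 FPKM in DMSO, 1.18 ± 0.806 in GSK591 and 2.33 ± 0.451 in MS023, a fall of 1.04 on the log2 scale with GSK591 (adjusted p = 0.00439). Its counts, 27, 23 and 17 over the libraries of each group, did not pass the filter and show no such gap. The second identifier of MRPS17 had 7, 6 and 15 counts over the libraries of each group.

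Genes that act with these proteins were grouped by role. Mitoribosome subunits under other symbols were called in part: 4 of 7 tested (57.1%) fell with GSK591 and none rose, and 3 (42.9%) fell with MS023. Beside these and the lists below stand 32.4% of all genes lower and 30.1% higher with GSK591, and 25.9% and 25.1% with MS023. CHCHD1, a small-subunit protein, fell in GSK591 (-0.46 ± 0.072, adjusted p = 5.72e-05), and GADD45GIP1, a large-subunit protein, fell in MS023 (-0.43 ± 0.070, adjusted p = 0.000150). Of 22 assembly factors 16 (72.7%) fell and 2 rose with GSK591 (median -0.16). With MS023 7 fell and 7 rose (31.8% each, near the share of all genes, median -0.038). TFB1M, which methylates the small ribosomal RNA, went from 8.66 ± 0.242 CPM in DMSO to 4.85 ± 0.482 in GSK591 and was at 7.89 ± 0.249 in MS023 (-0.84 ± 0.082, adjusted p = 5.11e-07, in GSK591). MTG1, a GTPase of large-subunit assembly, went from 5.36 ± 0.335 to 10.1 ± 0.361 CPM (0.90 ± 0.076, adjusted p = 1.05e-07), but in FPKM the sign turned, to -0.063 (adjusted p = 0.231). MRM1, which methylates the large ribosomal RNA, fell in MS023 (-0.78 ± 0.060, adjusted p = 7.32e-08).

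Of 15 translation factors 9 (60%, beside 32.4% of all genes) fell and 1 rose with GSK591 (median -0.22), and 7 (46.7%, beside 25.9%) fell and 2 rose with MS023 (median -0.11). TSFM, which recharges the elongation factor TUFM, fell in GSK591 (-0.48 ± 0.062, adjusted p = 8.76e-06), and the initiation factor MTIF3 fell in MS023 (-0.45 ± 0.070, adjusted p = 9.24e-05). Among 14 genes for the transcription of mitochondrial DNA and its regulators, 7 fell (50%, beside 32.4% of all genes) and 2 rose with GSK591. With MS023 2 fell (14.3%, beside 25.9%) and 5 rose (35.7%, beside 25.1%). TFAM, which packs mitochondrial DNA, was at 136 ± 7.23 CPM in DMSO, 98.95 ± 5.72 in GSK591 and 107 ± 3.44 in MS023, lower in both (-0.46 ± 0.048, adjusted p = 9.43e-07, and -0.35 ± 0.048, adjusted p = 2.42e-05). Of the factors whose motifs were searched in the promoters, NRF1 changed by -0.53 ± 0.053, adjusted p = 7.05e-07, in GSK591 and 0.14 ± 0.051, adjusted p = 0.0380, in MS023. YY1 changed by -0.43 ± 0.036, adjusted p = 1.04e-07, and 0.19 ± 0.036, adjusted p = 0.000461. The ETS factor GABPA changed by -0.15 ± 0.052, adjusted p = 0.0203, in GSK591, and was at -0.026 ± 0.052 in MS023 (adjusted p = 0.707). The increase of YY1 in MS023 turned in FPKM, to -0.088 (adjusted p = 0.158). That of NRF1 was not called without GSK591 2, DMSO 2 or any 1 of the MS023 libraries, with an adjusted p of up to 0.128. The decrease of GABPA was not called without DMSO 1, DMSO 2, GSK591 1 or GSK591 3, with an adjusted p of up to 0.173.

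The mRNAs that mitochondrial ribosomes translate were higher or not called with GSK591. Of the 13 encoded by mitochondrial DNA, 7 rose (53.8%, beside 30.1% of all genes) and none fell with GSK591 (median 0.41), and 5 fell with MS023 (38.5%, beside 25.9%, median -0.046). MT-ND5, a subunit of complex I, was at 492 ± 84.3 CPM in DMSO, 792 ± 28.8 in GSK591 and 482 ± 59.4 in MS023 (0.69 ± 0.099, adjusted p = 2.58e-05, in GSK591). MT-CO2, a subunit of cytochrome oxidase, fell in MS023 (-0.46 ± 0.093, adjusted p = 0.000806). Summed over the 13, CPM ran from 6201 to 8591 in DMSO, 8697 to 9170 in GSK591 and 5907 to 7456 in MS023, so DMSO libraries differed widely among themselves.

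**Figure D5:**
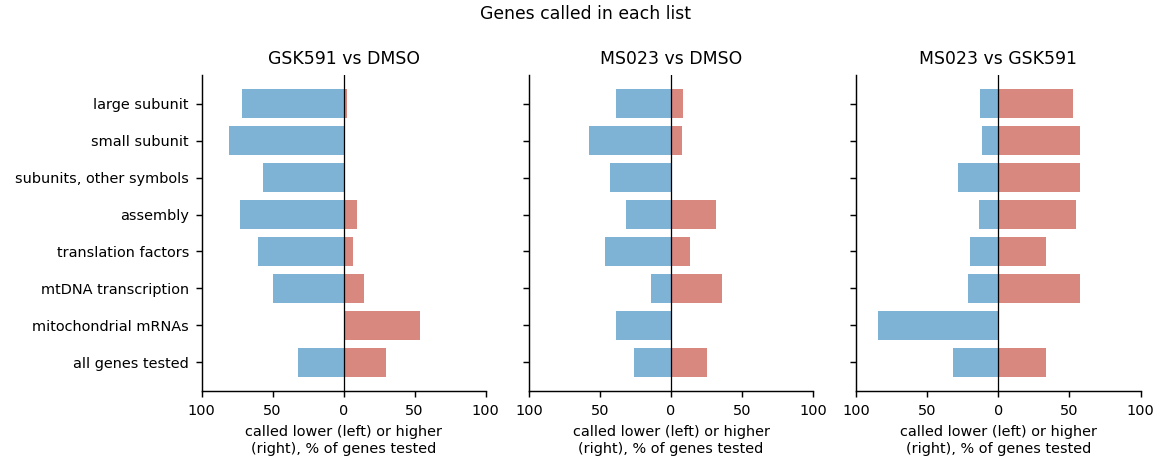
Share of genes tested in each list that were called lower (blue, to the left) or higher (red, to the right) at an adjusted p under 0.05 in edgeR, for the 3 comparisons, in percent, with all genes tested as the bottom bar. For GSK591 the bars of both ribosomal subunits reach 71.7 and 80.8% to the left, and all genes 32.4%.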

How the data were processed

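Gene counts were deposited by the authors in 1 table for all 9 libraries, as raw counts without normalisation, and FPKM values were deposited in 1 table per library in the layout of Cufflinks. The submitters' processing notes name cutadapt, STAR, featureCounts, DESeq2 and the build hg19. Not given in the sources used here are versions, annotation, strand setting and filters. Per the labels' protocols, ribosomal RNA was removed from total RNA before random-hexamer priming.

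Groups came from the labels. Counts were tested in R 4.3.3 with edgeR 4.0.16 (filterByExpr with minimum count 10 and minimum total 15, TMM scaling, quasi-likelihood, group as the only term, all 9 libraries). P-values are two-sided and adjusted by Benjamini-Hochberg over all 18292 genes, with a threshold of 0.05. CPM values are scaled by TMM, and a standard error is the log2 change divided by the square root of F. Levels between genes use FPKM. Alternatives were RLE or total-count scaling, other filters, DESeq2 1.42.0, a replicate block, left-out libraries, a threshold of 0.01, and limma 3.58.1 on log2(FPKM + 1) or log2(FPKM + 0.1), which understates changes of low genes. On simulated counts of 18292 genes for GSK591 against DMSO, 50 genes were changed at each of 1.25, 1.5, 2 and 3 times. Of these 48, 84, 100 and 100% were recovered, with 0.0509% false calls among the unchanged genes. The changed genes were picked from those at a mean of 1 CPM or more. The simulated spread came from the fit, without the part estimated gene by gene, so real libraries may be less regular. In the data 62.6% of genes were called in that comparison, a far larger share, so these rates need not hold there. Reads are not independent molecules, so errors take in amplification where it varied among libraries.

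The members and lists were chosen with earlier results of these data known. Members named are the 6 largest called and non-overlapping changes each way against DMSO, 4 each way between inhibitors, those with opposite calls, the 5 highest and 3 lowest FPKM, those not passing the filter, and MRPS36, MRPS18A and MRPS30, with up to 2 each way per other list. Symbols came from the FPKM tables.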

Additional observations from a re-analysis of the deposited data

How the results depend on the processing

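The 3 libraries per group and the seeding that changed with treatment limit every comparison with DMSO. Decreases in GSK591 numbered 51 to 59 of 73 members when 1 library was left out. They numbered 60 of 76 (78.9%) in log2(FPKM + 1), beside 38.6% of all genes. Decreases in MS023 numbered 24 to 35 of 73 when 1 library was left out, with 24 without MS023 3, 25 without DMSO 2 and 26 without MS023 2. Members called in MS023 against DMSO fell from 39 to 22 (20 lower) in log2(FPKM + 1) and in log2(FPKM + 0.1), and to 15 (14 lower) without the FPKM filter. Over all genes those calls numbered 5782, 5770 and 5473, beside 9327 from counts. The cause was not tested. MRPL53 reversed in FPKM: GSK591 against DMSO was -0.58, -0.59 and -0.58, and MS023 against GSK591 0.32, 0.32 and 0.32, in the same order. Scaling by total counts gave 51 members lower and 2 higher in GSK591, 27 and 9 in MS023, and 10 and 37 between inhibitors. It moved the median of the members in GSK591 to -0.24 and that of all genes to 0.066, from -0.30 and 0.006. The shares of all genes called with left-out libraries, total-count scaling or a replicate block are not given here. In log2(FPKM + 1) the median of all genes was -0.096 in GSK591, so the members' -0.36 there compares with that.

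Deviations of same-numbered libraries from their group means correlated with r from -0.43 to 0.26 over 9 pairs. Libraries with different numbers were not compared in this way, so these values cannot decide whether the libraries were paired. With a replicate block 53 members were lower and 1 higher in GSK591, 32 and 5 in MS023, and 9 and 39 between inhibitors. Among the calls described, the block ended those of MRPL15 in GSK591 (adjusted p = 0.0514), and of MRPS35 (0.0724) and NRF1 (0.052) in MS023.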

Other observations

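Pseudogenes of the mitochondrial ribosomal protein genes, copies in the genome that could take reads from the genes themselves, numbered 66 identifiers in the FPKM tables and 57 in the count table. Their counts came to 0.108 to 0.179% of the members' counts in the 9 libraries. MRPL45P2 was the only one that passed the filter on low counts. It was at 6.61 ± 0.15 CPM in DMSO, 4.88 ± 0.65 in GSK591 and 3.89 ± 0.17 in MS023 (SD, n = 3). It was lower in both, with log2 changes of -0.43 ± 0.097 (adjusted p = 0.00123, edgeR) and -0.76 ± 0.098, and its adjusted p stayed at or below 0.0119 and 0.0131 in the alternatives run. Its parent MRPL45 was at -0.054 ± 0.036, adjusted p = 0.206 in GSK591 and -0.16 ± 0.036, adjusted p = 0.00178 in MS023 on the same log2 scale.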
